A study of Homo sapiens with 16 samples.

Results

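The response to palmitic acid of HepG2 clones homozygous for the C allele of PNPLA3 was described from 4 of the 16 libraries of the series. HepG2, an established line from a human liver tumour, still makes many of the proteins of hepatocytes. The series title names prime editing as the means of making isogenic clones for PNPLA3 I148M, and the clones are labelled by genotype (C/C, G/C or G/G), where C encodes isoleucine and G the methionine form linked to fatty liver. The libraries were picked by their labels: CC clones 1 and 3 given 250 uM palmitic acid, against the control library of the same 2 clones. The other 12 libraries, palmitic acid and control of 3 GG clones and 3 GC clones, lent their spread to the fit and served as a comparison. Each clone has 1 library per treatment, so n counts clones, and nothing in the labels says that a treatment was repeated within a clone. The treatment protocol gives 48 h, whereas the labels of the single libraries give 54 h for CC clone 1 and 55 h for CC clone 3 and climb through the samples from 48 to 55 h. The vehicle of the controls is not given in the sources used here.

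Palmitic acid is a saturated long-chain fatty acid that liver cells activate to its CoA ester, oxidise in mitochondria or store as triglyceride in lipid droplets. Fatty acids bind nuclear receptors of the PPAR family, which switch on genes of fatty acid transport, oxidation and droplet coating. In excess, palmitic acid is known to stress the endoplasmic reticulum and to be toxic to hepatocytes. The product of PNPLA3 sits on lipid droplets and hydrolyses or remodels their triglyceride and retinyl esters.

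The CC libraries held 13779579 reads (clone 1) and 9314342 reads (clone 3) under palmitic acid, against 15777669 and 12051029 in the controls. The palmitic acid library of clone 3 was the shallowest of the 16, in which 1 read equals 0.108 of the per-million units used below. Throughout, paired values are given for clone 1 and then clone 3, levels are per-million units on the deposited scaling, and changes are differences of log2(level + 0.5), palmitic acid minus control. Of 16558 genes in the table, 13011 had a mean of at least 1 unit over the 4 CC libraries and were tested. All 12 hepatocyte markers were in the table and 11 were tested, with a summed level of 23315 and 14556 units under palmitic acid and 28328 and 25261 units in the controls. Of the 11 tested hepatocyte markers, 3 were called lower and 0 higher. Of markers of other liver cells, 5 stellate, 5 biliary, 3 macrophage and 2 endothelial genes were tested, and 0 were called. Over all tested genes 2.38% were called, so 0 calls in lists this short sets none of them apart. The stellate marker PDGFRA, the macrophage marker CSF1R and the endothelial marker CDH5 stayed under 1 unit in all 4 CC libraries, as did TM4SF4 among the hepatocyte markers. Other members of these lists were read, however. Under palmitic acid the lists summed to 84.5 and 138 units (stellate), 480 and 363 (biliary), 399 and 816 (macrophage) and 11.7 and 9.76 (endothelial). In the controls, in the same order, they summed to 83.1 and 66.9, 506 and 495, 427 and 914, and 17.1 and 12.5. In bulk RNA, fewer cells of a type and less RNA per cell cannot be told apart.

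More genes fell than rose in the CC clones in limma over all 16 libraries with the clone as block, whereas edgeR called 126 higher and 122 lower and limma on the 4 CC libraries alone called 21 higher and 10 lower. All called genes of the coagulation, complement, plasma carrier and apolipoprotein lists fell. In limma with the clone as block, 310 genes passed an adjusted p of 0.05, which is 2.38% of those tested. Of these, 120 rose (0.922% of tested genes) and 190 fell (1.46%), and all 310 had the same direction in both clones. A further view at an unadjusted p under 0.05 gave 2690 genes. The fitted change, which is the mean of the 2 clones, was at least 2-fold for 56 of the genes that rose and 73 of those that fell.

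The 2 clones differed in the size of their response. The SD of the log2 changes across the tested genes was 0.328 in clone 1 and 0.572 in clone 3, a ratio of 1.74, and it ran from 0.307 to 0.399 in the 6 GG and GC clones. In clone 1, 142 genes were higher by at least 2-fold (1.09% of tested genes) and 54 lower (0.415%), and in clone 3 there were 356 (2.74%) and 629 (4.83%). Clone 3 thus had the widest spread of the 8 clones and clone 1 lay among the others, as the plot of genes past 2-fold by clone shows. Of the 310 called genes, 245 changed more in clone 3 and 65 more in clone 1, with a median size of change of 0.609 in clone 1 and 1.06 in clone 3. Across all tested genes the changes of both clones correlated at a Pearson r of 0.337 (Spearman 0.281, genes of the same 4 libraries and not independent). The controls of the 2 clones had a chi-square per degree of freedom of their reads of 62.6. Between the treated and control libraries of a clone it was 16.6 in clone 1 and 43.4 in clone 3. This measure grows with depth. The treated library of clone 3 was the shallowest, so 43.4 cannot be ranked against 62.6.

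**Figure D1:**
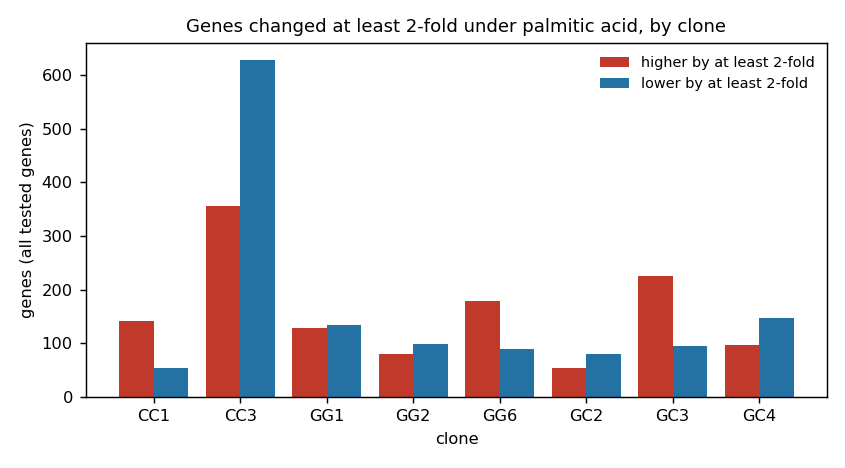
Number of the 13011 tested genes that were higher (red) or lower (blue) by at least 2-fold under palmitic acid than in the control library, for each of the 8 clones (vertical axis, genes). CC clone 3 has the tallest bars, at 356 higher and 629 lower, and CC clone 1 has 142 higher and 54 lower.

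A fit that leaves out 1 CC clone keeps 1 treated and 1 control CC library. Its p-values then measure only the spread of the palmitic acid change among GG and GC clones. Counts from 1 CC clone alone, here and below, therefore do not measure how the CC response varies. The calls rested mainly on clone 3. Without it limma called 16 genes, 11 higher (0.0845%) and 5 lower (0.0384%), and 12 of these were among the 310. The 12 were MUC5AC, CEACAM6, TMC7, BGN, DNAH17, NOS2, MIXL1 and SKIL, which were higher, and GPR75-ASB3, PGC, AGXT and CLU, which were lower. Without clone 1 it called 2069 genes, 878 higher (6.75%) and 1191 lower (9.15%), with 285 of them among the 310. Leaving out 1 GG or GC clone also cut the count, to 163 without GG clone 1, 216 without GG clone 2, 218 without GG clone 6, 170 without GC clone 2, 166 without GC clone 3 and 158 without GC clone 4. Without the clone as block 4 genes passed, MUC5AC, CEACAM6, MUC1 and TFF2, against 286 at an unadjusted p under 0.05. These 4 passed the filter on low values only through the treated CC libraries, as did NOS2 among the 12 above. Their passing here is therefore no separate result.

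**Figure D2:**
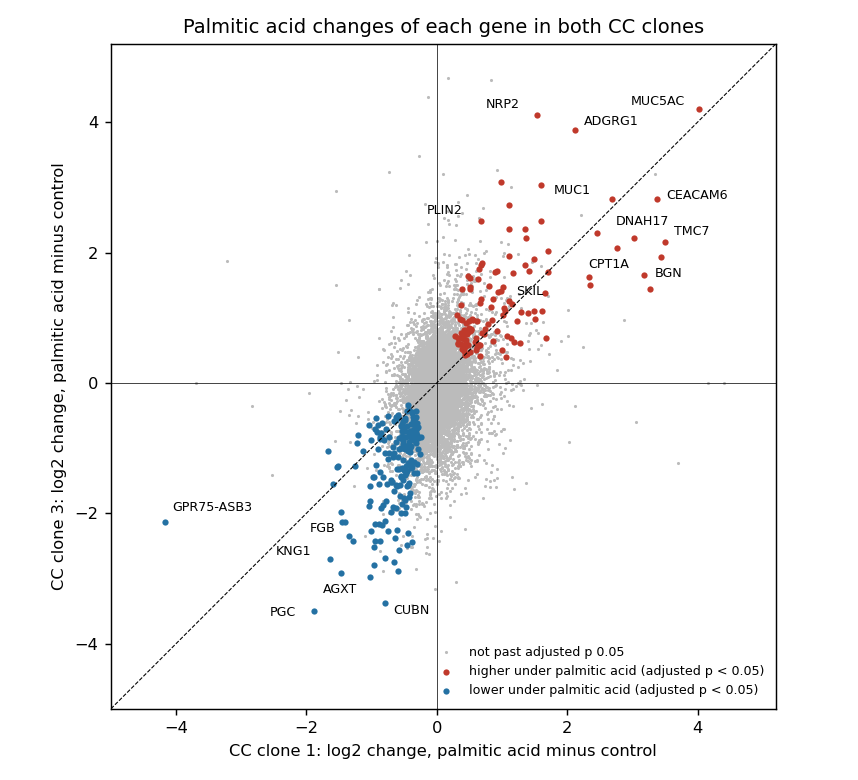
Log2 change with palmitic acid in CC clone 1 (horizontal axis) and CC clone 3 (vertical axis) for each of the 13011 tested genes. Grey points did not pass an adjusted p of 0.05, red points (120) rose and blue points (190) fell, and the dashed line marks equal change. Most coloured points lie further from 0 on the vertical axis, while TMC7, BGN and DNAH17 changed more in clone 1.

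CPT1A and PLIN2, textbook PPAR targets of fatty acid oxidation and storage, rose in both clones. CPT1A, which makes the acylcarnitines that enter mitochondria for oxidation (GRCh38 chromosome 11, 68754620 to 68844410), stood at 31.0 and 96.2 units under palmitic acid, against 4.11 and 22.7 in the controls. Both treated libraries lay above both controls. The changes were 2.77 and 2.06, and the fitted change was 2.42 ± 0.34 (SE, limma adjusted p = 0.0102), beside 1.59 in GG and 1.51 in GC clones. The difference between CC and the mean of the other genotypes was 0.87 ± 0.39 and did not pass (adjusted p = 0.749). PLIN2, the coat protein of lipid droplets in liver (chromosome 9, 19108375 to 19149290), had 212 and 1154 units under palmitic acid and 132 and 206 in the controls. The clone 3 library was far above the rest, while treated clone 1 barely cleared the control of clone 3. Its changes of 0.68 and 2.48 gave a fitted rise of 1.58 ± 0.29 (adjusted p = 0.0219). CREB3L3, a liver transcription factor tethered in the endoplasmic reticulum, rose by 1.43 ± 0.29 (adjusted p = 0.0337), with 11.0 and 12.4 units under palmitic acid against 4.62 and 3.51. Without clone 3 none of these 3 passed (adjusted p = 0.0520 for CPT1A, 0.147 for PLIN2 and 0.513 for CREB3L3).

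The droplet coat gene PLIN5 stood at 0.844 and 0 units under palmitic acid against 1.96 and 2.47 in the controls, without passing (-1.72 ± 0.40, adjusted p = 0.0524). Of 24 tested lipid droplet and triglyceride genes, PLIN2 rose and 3 fell: DGAT1, which makes the final step of triglyceride synthesis, GPAM of the first step, and the hydrolase CES1. Over all tested genes 0.922% were called higher and 1.46% lower. DGAT1 had 121 and 37.1 units under palmitic acid against 179 and 101 in the controls, and fell by 0.56 and 1.44 (adjusted p = 0.0178). The treated level of clone 1 lay between both controls, so that the groups overlapped. GPAM changed by -0.42 and -0.91 and CES1 by -0.85 and -0.83. Of 22 fatty acid oxidation genes CPT1A alone was called, with a list median of -0.16 (-0.03 in clone 1 and -0.18 in clone 3). Of 11 PPAR-alpha targets and lipid-sensing receptors 3 rose, CPT1A, PLIN2 and CREB3L3, and the lipase inhibitor ANGPTL4 stood at -0.83 and -2.01 (adjusted p = 0.0536). None of 17 fatty acid synthesis genes, 24 cholesterol genes and 26 ceramide and sphingolipid genes was called. At the shares over all tested genes, a single call, or none, in 17 to 26 genes sets no list apart. The median of the cholesterol list was -0.09 in clone 1 and 0.68 in clone 3, so the 2 clones differed in direction there. The edited gene PNPLA3 (chromosome 22, 43923739 to 43964488) had 14.8 and 2.39 units under palmitic acid and 13.3 and 1.99 units in the controls. Its change of 0.18 ± 0.21 did not pass (adjusted p = 0.657), and the gap between the clones was wider than that between treatments.

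**Figure D3:**
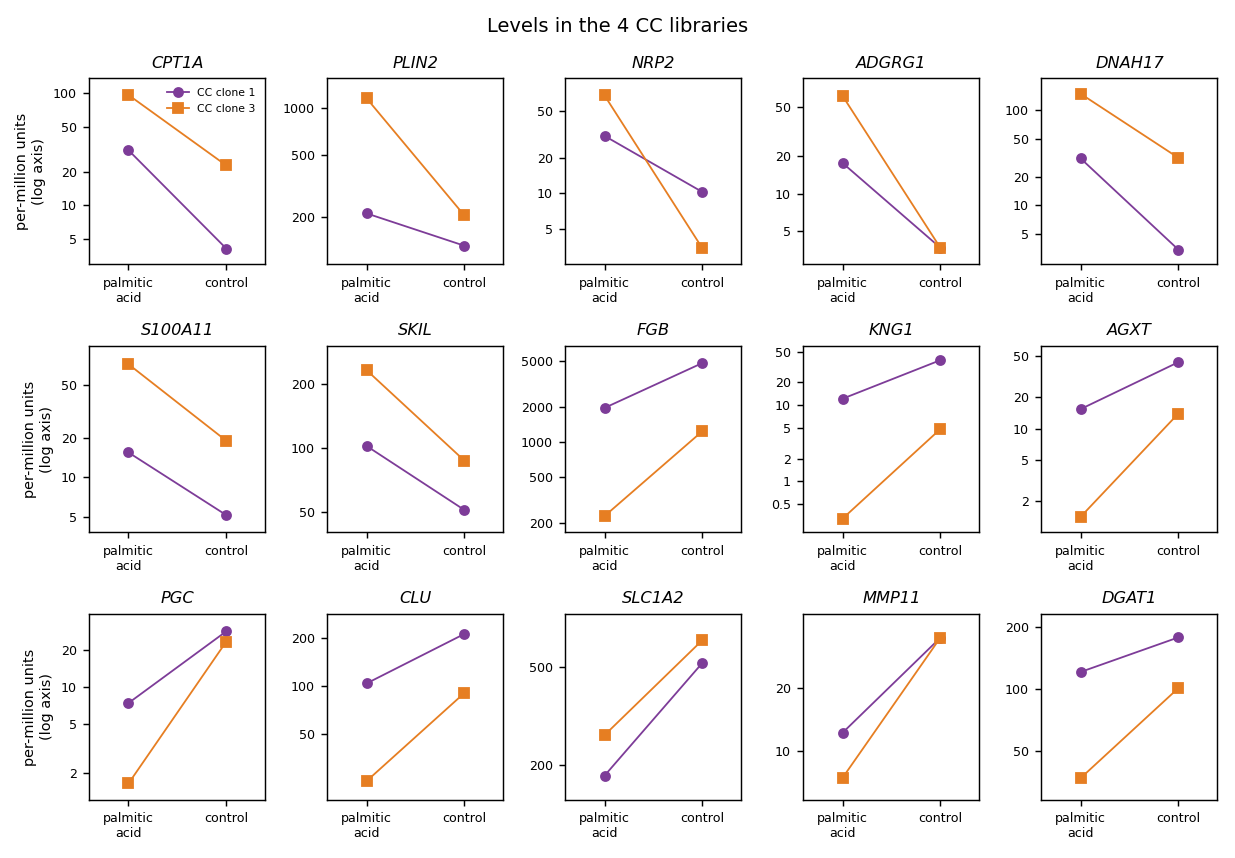
Levels of 15 genes in the 4 CC libraries (vertical axes, per-million units on a log scale that differs between panels), palmitic acid on the left and control on the right, with a line joining the libraries of 1 clone (purple circles clone 1, orange squares clone 3). Every line slopes the same way in both clones, and for KNG1 the clones lie further apart than the treatments.

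Beside CPT1A and the mucin MUC5AC, the largest rises included the genes of 2 surface receptors, a channel-like membrane protein and a dynein. ADGRG1, an adhesion receptor that binds matrix (chromosome 16, 57610652 to 57665580), had 17.6 and 60.9 units under palmitic acid and 3.67 in each control. Equal in the controls, the clones parted under treatment. Its changes were 2.12 and 3.88, with a fitted rise of 3.00 ± 0.40 (adjusted p = 0.00884), beside 2.17 in GG and 1.31 in GC clones. NRP2, a receptor for semaphorins and VEGF, had 30.5 and 67.2 units against 10.2 and 3.43, and rose by 1.53 and 4.11. TMC7, of the transmembrane channel-like family, had 20.2 and 44.6 units against 1.33 and 9.57. DNAH17, an axonemal dynein heavy chain, had 31.2 and 149.7 units against 3.42 and 31.7, so that treated clone 1 only matched the control of clone 3. TMC7 (3.50 and 2.16) and DNAH17 (3.02 and 2.22) were among the few that changed more in clone 1, and both had rises of like size in GG (2.55 and 2.17) and GC clones (3.04 and 2.58).

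Genes of the matrix and of TGF-beta signalling moved both ways. Of 29 tested genes of that list 6 rose and 3 fell, beside 0.922% of all tested genes called higher and 1.46% lower. The list median was 0.42 (0.23 in clone 1 and 0.58 in clone 3), against -0.01 over all tested genes. SKIL, a feedback inhibitor of SMAD proteins (chromosome 3, 170357678 to 170396835), had the smallest p of the list: 102 and 231 units under palmitic acid lay above 51.1 and 87.0 in the controls, a rise of 1.20 ± 0.11 (adjusted p = 0.00256, and 0.0251 without clone 3). TGFB1, the cytokine itself, had 68.5 and 212 units against 42.3 and 59.1. The proteoglycan BGN (3.17 and 1.66), the matrilin MATN3 (1.62 and 1.11) and the hyaluronan-degrading CEMIP (2.33 and 1.63) rose more in clone 1. MMP11, a secreted metalloproteinase, fell to 12.2 and 7.49 units, against 34.5 in each control (-1.80 ± 0.24, adjusted p = 0.00884), and the collagen chains COL18A1 (-0.48 and -1.27) and COL6A1 (-0.71 and -1.49) fell too. Of the 29, 15 were higher in both clones and 6 lower in both, against 27.6% and 31.2% of all tested genes.

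The lists of actin, S100 and immediate early genes had medians above 0. Beside their calls, 0.922% of all tested genes were called higher. Of 40 actin and adhesion genes 2 rose and 0 fell, the focal adhesion protein ZYX (0.74 and 0.82) and the actin-severing CFL1 (0.39 and 0.96), while the median was 0.51 and 28 of 40 were higher in both clones, against 27.6% of all tested genes. The median of the actin and adhesion list was 0.21 in clone 1 and 0.81 in clone 3. Of 17 S100 proteins and annexins 2 rose. S100A11, a calcium-binding partner of annexins, rose by 1.49 and 1.90 (fitted 1.70 ± 0.20, adjusted p = 0.00501), and S100A10 rose by 0.66 and 1.23. Of 22 immediate early genes 4 rose: the AP-1 subunits JUN (1.15 and 1.20) and JUNB (1.10 and 2.36), the TGF-beta-inducible repressor KLF10 (1.66 and 1.37) and the MAP kinase phosphatase DUSP4 (1.51 and 0.98). JUNB had 10.8 and 72.9 units under palmitic acid and 4.74 and 13.8 units in the controls, so clone 1 stayed below the control of clone 3 even when treated. BHLHE40, a circadian and stress-responsive repressor, followed the same order, with 5.21 and 81.8 units against 1.39 and 9.57 (2.31 ± 0.31, adjusted p = 0.00884).

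A small set of mucin and surface epithelial genes was read almost solely in the treated CC libraries. Whether these reads come from the HepG2 cells themselves cannot be told from bulk libraries. Of 25 tested epithelial, mucin and keratin genes 8 rose and 2 fell, beside 0.922% of all tested genes called higher and 1.46% lower. The list median was 0.49 (0.30 in clone 1 and 0.65 in clone 3, with 0.07 in GG and 0.07 in GC clones). MUC5AC, the secreted gel-forming mucin of the gastric surface and airways (chromosome 11, 1157953 to 1201138), had 7.67 and 10.2 units under palmitic acid, against 0 and 0.0798 in the controls. These are 109 and 94 reads against 0 and 1. It had 0 units in 11 of the 12 GG and GC libraries and 0.0681 in the other. The ratio of the CC treated to the CC control reads at equal depth was 246 (95% interval 43.6 to 9745, counting error only), and the fitted change was 4.12 ± 0.31 (adjusted p = 4.28e-04, and 0.0122 without clone 3). CEACAM6, a cell adhesion molecule of mucosal epithelium, had 4.71 and 3.04 units under palmitic acid and 0 in the other 14 libraries, which is at least 38.3-fold higher than a floor of 3 reads over both CC controls. MUC1, a transmembrane mucin, had 3.52 and 3.04 units against 0.127 and 0, and the trefoil peptide TFF2 had 2.25 and 1.95 units against 0 and 0. MUC6 and MUC5B, neighbours of MUC5AC on chromosome 11, rose by 1.86 ± 0.39 and 1.71 ± 0.29. These 6 genes passed the filter on low values only through the treated libraries, so that their standing above the controls is no separate result. Clone 1 changed about as much as clone 3 in them. PGC, the pepsinogen of the stomach, went the other way: 7.39 and 1.63 units under palmitic acid lay below 28.5 and 23.5 in the controls (-2.69 ± 0.30, adjusted p = 0.0042). The other called members were the junction proteins CLDN4 (1.38 and 2.22) and CDH2 (0.43 and 0.55), which rose, and CLDN2 (-0.80 and -1.08), which fell.

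The breadth of this pattern was counted with a rule chosen after these values were seen. It asked for at least 5 reads in each of the treated CC libraries and for a lower of the 2 levels over 2.5 times the highest of the other 14 libraries. It was met by 20 genes, of which 7 had passed the filter for testing. Beside MUC5AC, CEACAM6, MUC1, TFF2 and MUC6 they were the nitric oxide synthase NOS2, the collagen receptor MRC2, REG4, TFF1, CEACAM5, EHF, CER1, FER1L6, ALDH1A3, PRSS2, KLK10, MUC17, GSTP1, KLK7 and LGALS4. The reads of PRSS2 are hard to part from those of other trypsinogen genes. The same rule found 0 genes in the CC controls. It also found 0 in each of the GG and GC groups, where it asks more because 3 libraries have to pass. Together the 20 genes summed to 43.9 and 42.0 units under palmitic acid, against 1.01 and 1.84 units in the CC controls and 0.579 to 2.57 units in the GG and GC libraries. The ratio of clone 3 to clone 1 among them ran from 0.491 to 1.76, with a median of 1.25. The rule fixes that they are high there, so these levels are a description.

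**Figure D4:**
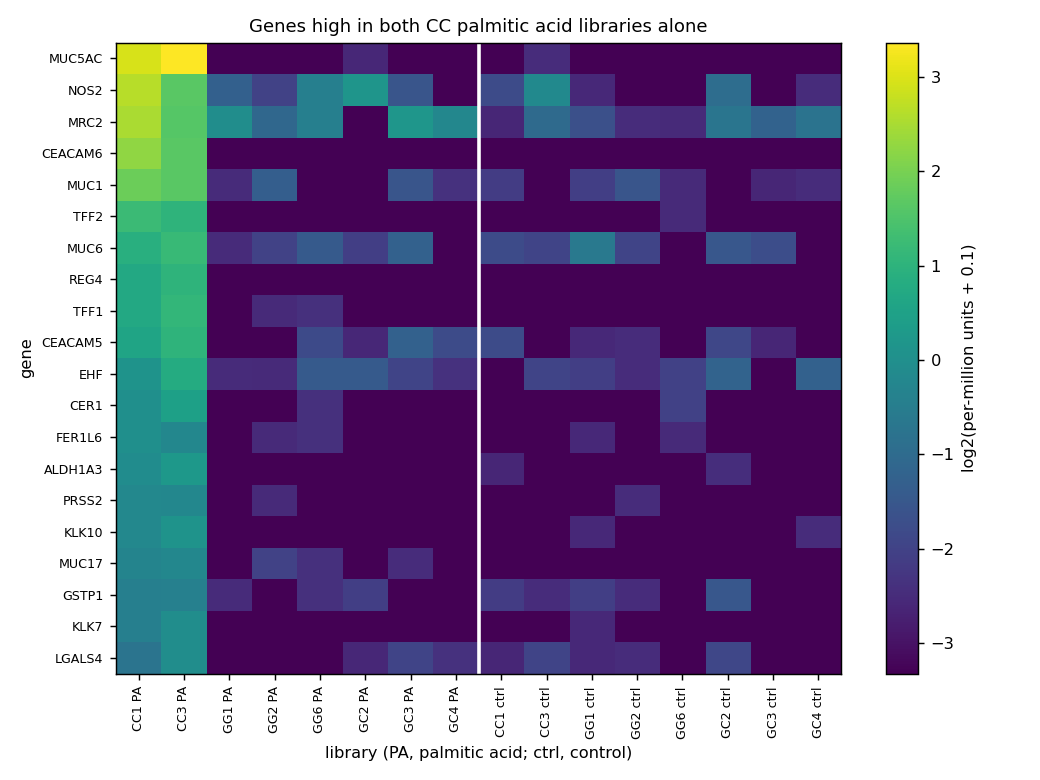
Levels (colour, log2 of per-million units plus 0.1) of the 20 genes chosen for being high in both CC palmitic acid libraries, in all 16 libraries, palmitic acid left of the white line and controls right of it. The 2 CC columns at the left edge carry the colour, with summed levels of 43.9 and 42.0 units against at most 2.57 units in any other library.

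The difference of the CC response from that of the other genotypes passed in 2 genes only, 0.0154% of those tested, and both belong to the mucin set, whose members entered the test only through the treated CC libraries. At a pseudocount of 0.1 and by edgeR 0 genes passed, and by DESeq2 1. MUC5AC changed by 4.09 ± 0.36 more in CC than in the mean of GG and GC clones (limma adjusted p = 0.0021), and CEACAM6 by 3.10 ± 0.38 more (adjusted p = 0.0308). MUC1 missed the threshold (2.72 ± 0.37, adjusted p = 0.0502). At an unadjusted p under 0.05 there were 845 genes. The count depends on CC clone 1: without it 620 genes passed, and without CC clone 3 there were 2. CYP1A1, a hydrocarbon-inducible oxidase, had 9.36 and 23.9 units under palmitic acid against 4.62 and 8.78 in the controls, and rose in CC clones (1.17 ± 0.27, adjusted p = 0.0475). It stood at -0.06 in GG and -0.60 in GC clones, but the difference of 1.50 ± 0.31 did not pass (adjusted p = 0.600). HELZ2, a coactivator of PPAR receptors, fell to 24.4 and 37.8 units in CC clones, against 43.3 and 69.7 in the controls (-0.85 ± 0.12, adjusted p = 0.0106), with 0.07 in GG and -0.16 in GC clones and a difference of -0.80 ± 0.14 (adjusted p = 0.224).

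Calls among secreted liver proteins were all falls, beside 1.46% of all tested genes called lower and 0.922% higher. Of 19 tested coagulation and fibrinogen genes 7 fell and 0 rose, with a median of -0.69 (-0.30 in clone 1 and -1.06 in clone 3; -0.17 in GG and -0.21 in GC clones). Of 20 plasma carrier and acute phase genes 6 fell, of 19 complement genes 4 and of 18 apolipoprotein genes 2, and none of these rose. Medians in clone 1 and clone 3 were -0.27 and -1.13 for plasma carriers, -0.07 and -1.08 for complement, and -0.10 and -0.59 for apolipoproteins. In each of the 4 lists most genes were lower in both clones: 15 of 19, 13 of 20, 13 of 19 and 14 of 18, against 31.2% of all tested genes. The treated library of clone 3, in which the falls were deepest, was also the shallowest of the 16, and the part of depth in these falls was not tested.

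All 3 fibrinogen chains fell. FGB (chromosome 4, 154562956 to 154571086) had 1976 and 230.0 units under palmitic acid, against 4820.1 and 1243 in the controls. Treated clone 1 stayed above the control of clone 3, so the groups overlapped, though each clone fell (-1.29 and -2.43; fitted -1.86 ± 0.26, adjusted p = 0.0106, and 0.139 without clone 3). FGA fell by 0.79 and 2.69 and FGG by 0.95 and 2.17. KNG1, the kininogen precursor of bradykinin, had 12.2 and 0.325 units against 39.0 and 4.87, a change of -2.17 ± 0.33 (adjusted p = 0.013). Palmitic acid left 3 reads of KNG1 in clone 3. SERPINC1, which is antithrombin (-0.88 and -1.55), the plasmin inhibitor SERPINF2 (-0.75 and -2.26) and prothrombin F2 (-0.30 and -0.69) fell as well. Of complement, CLU, a chaperone that blocks the membrane attack complex, had 104 and 25.3 units against 213 and 90.5 (-1.42 ± 0.16, adjusted p = 0.0042, and 0.0251 without clone 3). C8B, a chain of that complex, fell to 3.59 and 0.542 units, against 7.84 and 7.74. Among carriers, HP, which binds free haemoglobin (-0.58 and -2.56), the iron hormone HAMP (-0.89 and -2.17), the corticosteroid carrier SERPINA6 (-0.41 and -1.68), transferrin TF (-0.45 and -1.57), the hyaluronan-linked ITIH2 (-0.44 and -0.95) and the retinol carrier RBP4 (-0.90 and -0.64) fell. RBP4 was the only one of these 6 that changed more in clone 1. Albumin, ALB, stood at 105 and 99.2 units under palmitic acid against 151 and 179 in the controls, with an adjusted p of 0.0653. APOA5, which aids clearance of plasma triglyceride (-0.65 and -2.75), and APOA1 of high-density lipoprotein (-0.31 and -1.39) were the called apolipoproteins.

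The stretch before the start of the 3 fibrinogen genes is shown because a short motif of hepatocyte factors was more frequent among the genes that fell. C/EBP proteins drive many liver promoters. The 150 bases before the start are given 5′ to 3′ on the gene's strand (RefSeq, GRCh38.p14), and capitals mark matches on either strand to the C/EBP core TTGCNNAA. They lie at chr4:154590743-154590892 (FGA, minus strand), chr4:154562830-154562979 (FGB, plus) and chr4:154612657-154612806 (FGG, minus).
FGA: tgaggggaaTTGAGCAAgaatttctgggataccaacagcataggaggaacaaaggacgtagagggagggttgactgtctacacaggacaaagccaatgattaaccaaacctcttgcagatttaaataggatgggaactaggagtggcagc
FGB: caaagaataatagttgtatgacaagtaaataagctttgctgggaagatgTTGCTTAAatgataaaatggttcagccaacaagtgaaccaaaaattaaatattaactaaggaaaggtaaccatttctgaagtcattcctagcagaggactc
FGG: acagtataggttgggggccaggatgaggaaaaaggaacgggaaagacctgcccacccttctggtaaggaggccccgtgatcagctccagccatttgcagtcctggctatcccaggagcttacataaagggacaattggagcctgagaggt
FGA and FGB hold 1 match each, and FGG holds none in these letters. The same stretches of KNG1 and AGXT, which also fell, held 0 matches. Over 250 bases before the start, the C/EBP core was found in 17 of 135 promoters of genes that fell (12.6%), 4 of 81 of genes that rose (4.94%) and 562 of 9612 of all tested genes with a promoter (5.85%). Also searched were TGANTCA of AP-1 (2.96%, 6.17% and 3.76% of the same sets), CACGTG, an E-box (8.15%, 7.41% and 8.90%), and TTANNTAA of PAR bZIP factors (5.93%, 0% and 2.59%). TTGCNNAA and TTANNTAA can share bases. These shares are descriptions of letters, with no test.

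Calls among metabolic enzymes of the hepatocyte were mostly falls. Beside the counts below, 1.46% of all tested genes were called lower and 0.922% higher. Of 24 amino acid catabolism and urea cycle genes 4 fell and 0 rose, with a median of -0.41 (-0.20 in clone 1 and -0.55 in clone 3). AGXT, the peroxisomal enzyme that clears glyoxylate (chromosome 2, 240868479 to 240880502), had 15.4 and 1.41 units under palmitic acid against 43.6 and 14.0 in the controls. Treated clone 1 sat just above the control of clone 3. It fell by 1.47 and 2.92 (fitted -2.20 ± 0.26, adjusted p = 0.00501, and 0.0251 without clone 3), beside -0.88 in GG and -0.80 in GC clones. CPS1 of the urea cycle (-0.40 and -0.82), HGD of tyrosine breakdown (-0.49 and -0.57) and AHCY, which hydrolyses S-adenosylhomocysteine (-0.34 and -0.53), were the others. Of 13 xenobiotic enzymes the alcohol dehydrogenase ADH4 fell (-0.93 and -1.25) and CYP1A1 rose. Of 15 bile acid genes the phospholipid pump ABCB4 (-0.59 and -1.01) and the FGF co-receptor KLB (-0.49 and -1.99) fell. Of 21 hepatocyte transcription factors NR2F2 (-0.93 and -0.54) and CEBPA (-0.42 and -0.76) fell, while HNF4A stood at -0.12 and -0.84 (adjusted p = 0.108). Of 22 amino acid and betaine carriers 2 fell. SLC1A2, a glutamate carrier, fell to 181 and 265 units, against 521 and 646 in the controls (-1.41 ± 0.18, adjusted p = 0.00821), close in both clones and to GG (-1.21) and GC (-1.36). The betaine carrier SLC6A12 fell to 1.34 and 0.976 units, against 5.06 and 3.83.

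Other large falls were scattered over surface and secreted proteins. CUBN, an endocytic receptor for vitamin-loaded carriers, fell to 123 and 21.6 units, against 215 and 229 in the controls (-2.09 ± 0.40, adjusted p = 0.0273). Its control levels were alike and its treated levels were not, with changes of -0.80 and -3.38. The membrane carbonic anhydrase CA4 (-0.97 and -2.79), the rhomboid-like RHBDL3 (-1.35 and -2.35) and HGFAC, which activates hepatocyte growth factor (-1.47 and -1.98), also fell. The read-through gene GPR75-ASB3 had the most negative fitted change (-3.15 ± 0.43), with 0 and 3.25 units against 8.48 and 16.0. It overlaps the genes it joins, so that its reads are uncertain.

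**Figure D5:**
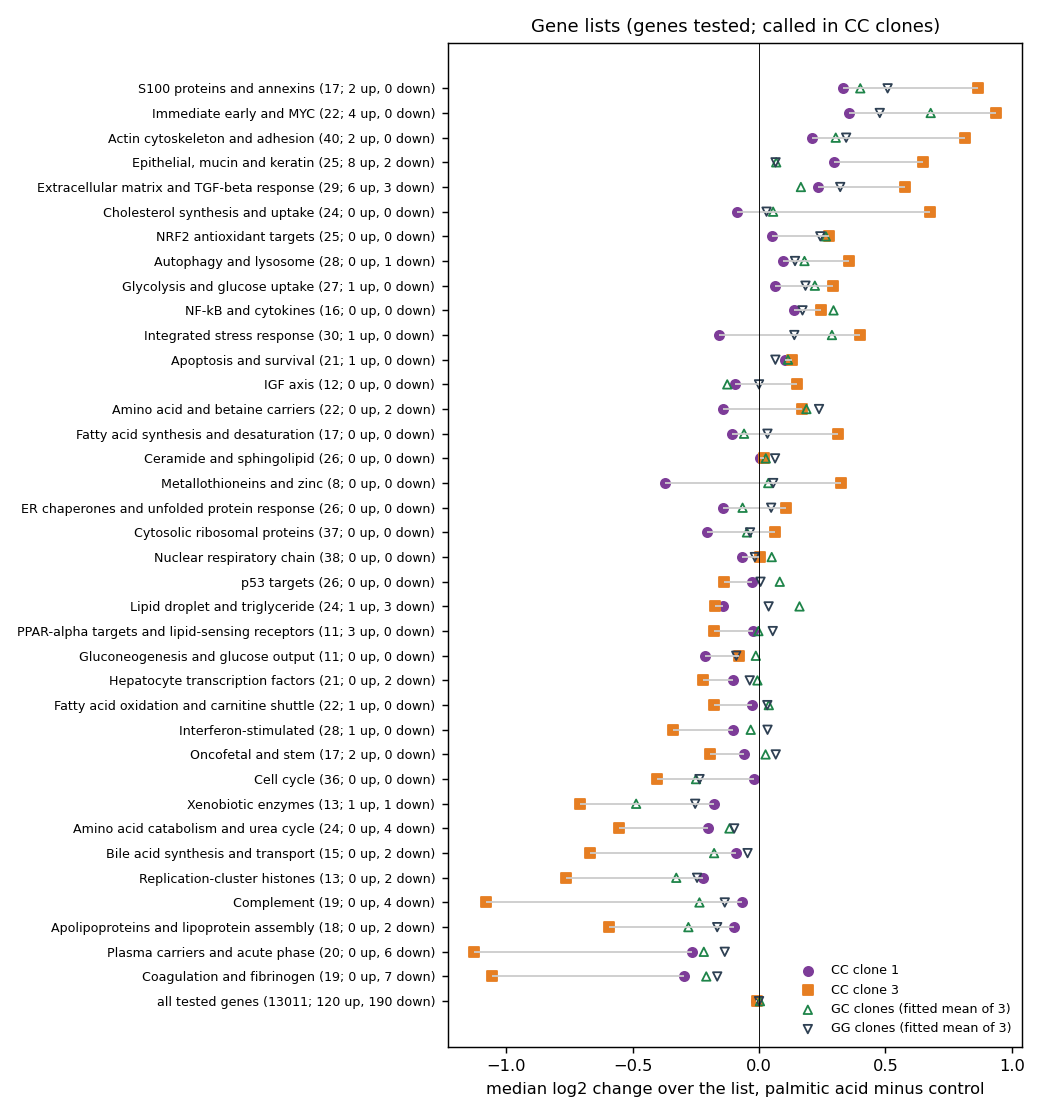
Median log2 change over the tested genes of each list in CC clone 1 (circles) and CC clone 3 (squares), with fitted means of the GC clones (up triangles) and GG clones (down triangles), and the number of genes tested and called in CC clones in the labels. Of the lists plotted, which leave out the cell type markers, the coagulation list (-1.06 in clone 3 and -0.30 in clone 1), the plasma carrier list and the complement list lie furthest to the left for clone 3 and the S100, immediate early and actin lists to the right, with clone 3 further from 0 than clone 1 in each of these.

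The stress and growth lists were short, and over all tested genes 2.38% were called. A single call, or none, in 8 to 38 genes therefore sets no list apart. Of 30 integrated stress response genes TRIB1, a pseudokinase that promotes turnover of C/EBP-alpha, rose alone, with 47.1 and 495 units under palmitic acid against 24.7 and 151 in the controls (1.32 ± 0.27, adjusted p = 0.0337). The list median was -0.16 in clone 1 and 0.40 in clone 3, so the clones differed in sign. Of 28 autophagy and lysosome genes TFEB, which activates lysosomal genes, fell by 0.90 and 1.02. The glycolytic ENO2 (0.52 and 0.82), the pore-former DFNA5 (0.55 and 0.96), the interferon-induced IFITM2 (1.19 and 0.63), SOX4 (0.84 and 1.17) and the WNT antagonist NKD1 (0.46 and 0.74) rose as single members of their lists or, for the last pair, as both called members of the oncofetal list. Of 13 replication-cluster histones HIST1H4B (-0.45 and -1.22) and HIST2H2AC (-0.40 and -0.74) fell. None was called of 26 genes of ER chaperones and the unfolded protein response, 25 NRF2 targets, 26 p53 targets, 36 cell cycle genes, 38 nuclear respiratory chain genes, 37 cytosolic ribosomal proteins, 16 NF-kB genes, 12 genes of the IGF axis, 11 of gluconeogenesis and 8 of metallothioneins and zinc. The cell cycle list had a median of -0.22 (-0.02 in clone 1 and -0.40 in clone 3), with 21 of 36 lower in both clones, and -0.24 in GG and -0.25 in GC clones. A miss of the threshold does not show that these genes were unaltered.

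Some genes moved in 1 clone and not in the other, and they are given as a description because they were chosen for that. In clone 3 MT2A, a zinc-binding metallothionein, had 51.2 units under palmitic acid against 7.18 in its control, whereas clone 1 had 2.18 against 2.53. The copies MT1E (-1.54 and 1.50) and MT1X (-0.89 and 1.45) also went opposite ways in the 2 clones, although reads of near-identical metallothioneins are hard to part. BMP6, a ligand that induces hepcidin, had 9.55 against 1.12 units in clone 3 and 0.985 against 0.822 in clone 1, while HAMP itself fell in both. SOCS2, a feedback inhibitor of growth hormone signalling (-0.13 and 2.44), and AMPD3, an AMP deaminase (0.17 and 2.51), were higher in clone 3 alone. SULT2A1, the sulfotransferase of bile acids and steroids, had 1.19 against 8.30 units in clone 3 and 41.9 against 46.6 in clone 1. The potassium channel KCNC1 (-0.05 and -2.38) showed the same form. In clone 1 alone, the alkaline phosphatase ALPPL2 had 10.1 units under palmitic acid against 0 in its control, with 0 in both libraries of clone 3. The glutathione peroxidase GPX2 was higher in clone 1 (118 against 49.5 units), with 41.9 against 41.7 in clone 3. AMOTL2, a YAP-binding scaffold, had 15.5 against 39.9 units in clone 1 and 17.8 against 17.6 in clone 3.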

How the data were processed

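RNA sequencing of 16 HepG2 libraries was analysed (3 GG, 3 GC and 2 CC clones, each with palmitic acid and control). Per the labels, ribosomal RNA was depleted and libraries were stranded; trimming with Trimmomatic 0.38, Bowtie2, RSEM 1.3.0, edgeR and hg38 are listed in the submitters' processing notes. The deposited table holds a normalized signal, made by the authors. All values were whole multiples of 1 read (100% at a tolerance of 0.01 reads) and recomputed TMM scaling matched to within a relative 1e-09, so each is a per-million read count after TMM scaling. Depth ran from 9314342 to 15777669 reads per library; intervals and floors cover counting error only.

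From these, limma 3.58.1 (R 4.3.3, mean-variance trend, two-sided, Benjamini-Hochberg at 0.05 over the 13011 genes whose CC libraries averaged 1 unit or more) was fitted to log2(value + 0.5) in all 16 libraries, with 1 term per clone and 1 palmitic acid term per genotype (5 residual degrees of freedom). Library pairs come from the clone in the labels: treated libraries correlated best with their own clone's control in 8 of 8 clones (0.545 to 0.840), CC clone 3 with 0.634 against 0.577 for the next. Deviations from group means correlated at 0.505 to 0.841. P-values measure the spread of the palmitic acid change between clones of the same genotype, pooled over GG, GC and CC. This spread may be partly technical. It is moderated by limma towards that of other genes, with 6.22 prior degrees of freedom. Of the 5 residual degrees of freedom, 1 comes from the CC clones. edgeR 4.0.16 and DESeq2 1.42.0 on recovered reads, other pseudocounts, filters and scalings, no block, the 4 CC libraries alone, and leaving out each clone were alternatives. The limma step was tested on simulated data. Positions are from GENCODE v29.

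Members and gene lists were chosen with earlier results of these data known. Named genes were the 10 largest called rises and falls (averaging 5 units or more in 1 treatment), the 8 each way with the largest smaller clone change, up to 3 members per list with the smallest p, genes differing from GG and GC, and 6 each way that changed in 1 clone alone (under 0.25 in the other). Other called list members, HELZ2, the 12 genes called without clone 3 and the mucin set were named after their values were seen. Placeholder, antisense and small RNA names were left out. Some named genes are not reported here.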

Additional observations from a re-analysis of the deposited data

Results flagged for a closer look

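Of all results, 2 stood out because the palmitic acid change in CC clones differed from the mean change in GG and GC clones in limma's test of that difference. MUC5AC differed by 4.09 on the log2 scale (adjusted p = 0.0021), higher in both CC clones (4.03 and 4.21), with 0 reads in the 6 GG libraries and 1 read in the 6 GC libraries. CEACAM6 differed by 3.10 (adjusted p = 0.0308), higher in both CC clones (3.38 and 2.82) and at 0 reads in all 12 GG and GC libraries. Leaving out any 1 GG or GC clone left 1 gene past the threshold, as did DESeq2, and edgeR and a pseudocount of 0.1 left 0. MUC5AC and CEACAM6 passed the filter on low values only through the treated CC libraries, so their standing above the other libraries is no separate result. Whether their reads come from the HepG2 cells themselves cannot be told from bulk libraries. Groups of 2 and 3 libraries are too small for a test of single libraries that stand apart.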

How the results depend on the processing

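The count of 310 genes rested on the clone block and on CC clone 3. With no replicate block 4 genes passed, with the 4 CC libraries alone 31, with DESeq2 507, and leaving out 1 clone gave 16 to 2069. It was 268 to 315 at other pseudocounts, 297 and 334 under other filters, 232 and 279 under other scalings and 248 by edgeR, where 126 were higher and 122 lower, against 120 and 190. All genes shifted by -0.024 to 0.013 in the median under these scalings. Of the 23 genes named as largest changes, 1 passed with no replicate block and 7 to 23 when 1 clone was left out. The 62 called genes named by rule and reported here kept their direction in each setting in which they were tested (59 at a mean of at least 5). Only the other scalings, edgeR and DESeq2 could have turned a direction. In the other settings it was fixed in advance, because all 310 called genes had the same direction in both CC clones.
The count of 2 genes that differed from GG and GC was 4 with no replicate block, 0 at a pseudocount of 0.1, 0 at a mean of at least 5 (which leaves both genes untested), 9 with no filter, 0 by edgeR (730 at an unadjusted p under 0.05), 1 by DESeq2 and 1 to 620 when 1 clone was left out. For the alternatives other than that filter, the cause was not tested. The difference cannot be had from the CC libraries alone.
Of the descriptions, 84 genes changed at least 2-fold the same way in both CC clones (60 higher, 0.461%; 24 lower, 0.184%), and 129, 52 and 34 did at pseudocounts of 0.1, 1 and 2 and 47 at a mean of at least 5. The ratio of spreads, 1.74, was 1.61 and 1.90 at pseudocounts of 0.1 and 2, 1.97 at a mean of at least 5 and 1.61 with no filter. The 9 lists with a median of at least 0.5 in size were 7 to 10 in other settings.
Directions of uncalled genes turned when a CC clone was left out: without clone 3 and then without clone 1, CD68 was at 0.048 and -0.38, MSH5-SAPCD1 at 0.067 and -2.27, COMMD3-BMI1 at -0.13 and 4.39, MT2A at -0.18 and 2.75, SOCS2 at -0.13 and 2.44, AMOTL2 at -1.33 and 0.013, PIM1 at -0.73 and 0.19, LAD1 at 1.54 and -0.028 and COL16A1 at 1.32 and -0.12.
With 9314342 reads in the treated library of clone 3, levels under 0.325 units (3 reads) cannot be told from 0 there.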
